A study of Oryza sativa with 8 samples.

Results

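The cold response described here is that of roots of a cold-sensitive indica rice line, set as plants moved to 10 °C against plants kept at 28 °C. Its members are the rice loci with a p-value in the authors' deposited table for that comparison, 35835 of the 42004 locus IDs in the tables, and a positive value means higher in the cold. The sensitive line and a cold-tolerant indica line treated alongside it are IRGA breeding lines with partly shared names. Seedlings were about 30 days old and had 3 leaves, each temperature was represented by 2 libraries, and each library held roots of 4 plants. Poly-A RNA was read as single ends of 50 bp. The labels conflict on the time at 10 °C: 24 h is given where RNA extraction is described, and up to 10 days where the treatment is described and in the sample titles. The labels name no transgene or other treatment in any group. Nothing beyond the word biological says how the replicates were kept apart, so p-values measure the spread between libraries, which may be technical. Followed around the 4 groups, the deposited log2 changes cancelled to within 7.59e-14, and each deposited mean covers all 8 libraries. These values point to a joint fit of all 8 libraries. The errors and p-values therefore probably draw on the spread of the tolerant libraries too.

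Rice comes from warm climates, and cold soil slows the growth of its roots and their uptake of water and minerals. Many genes of cold and drought are reached through abscisic acid (ABA), a hormone made from carotenoids by NCED enzymes: in its absence clade A PP2C phosphatases hold SnRK2 kinases (SAPK in rice) inactive, and in its presence the kinases act on bZIP factors that switch on dehydrins and related protective proteins. Faster and partly separate routes run through DREB, NAC, WRKY and zinc finger transcription factors, while a growing root spends much of its transcription on cell division, cell walls and mineral uptake.

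The unit is the normalised read count, the authors' read count divided by a size factor for depth, and group levels below are calculated from the deposited mean over all libraries and the deposited fold changes. No values of single libraries were used, so each level is a group value for 2 libraries. Its spread is carried by the standard error (SE) of the log2 change, which probably draws on all 8 libraries. A locus was called when its adjusted p from the DESeq2-type Wald test of the authors' deposited table was below 0.05. The authors' filter on low means left 26199 loci with an adjusted p, all with a mean of at least 1.59, and left 9636 without one. Size factors were 1.10 and 1.24 at 28 °C and 0.679 and 0.959 at 10 °C. They do not give depth directly, since the summed normalised counts were higher in the cold. Reads over a group are also calculated, as the group level times its summed size factors, rounded to a whole number. They are not observed counts. With 0 reads, a level could still be as high as 1.28 normalised counts at 28 °C and 1.83 at 10 °C, from 3 reads over the group and for counting error only.

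None of the IDs could be paired with a gene name in the reference table used here. Loci are therefore named by ID alone. The gene groups below were put together from general knowledge of rice, and their membership was not checked against an annotation. Read counts are not divided by gene length, so levels are compared between temperatures and not between loci. Loci of near-identical families and close neighbours may share reads, and no source used here says how such reads were treated.

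The cold response of sensitive roots was broad and ran in both directions. Of 26199 loci tested, 11670 were called (44.5%), with 5966 higher in the cold (22.8%) and 5704 lower (21.8%). Changes were large: 9359 of the called loci changed at least 2-fold and 5160 at least 4-fold, while 954 rose and 764 fell at least 16-fold. The median size of a called change was 1.78 on the log2 scale. Loci seen at one temperature and not at the other were part of this, with 161 called loci rising from 0 reads and 202 falling to 0 reads.

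The balance of rises and falls depended on the scaling. Under the authors' size factors, 51.1% of called loci rose and the median log2 change of all tested loci was −0.03. The normalised counts of all loci summed to 17910329 at 28 °C and 21509514 at 10 °C, a log2 ratio of 0.26. With both sums set equal, termed total-count scaling below, 4597 of 11914 called loci rose (38.6%) and 7317 fell. No called locus could change direction under that scaling, because the shift of 0.26 is smaller than the smallest called change, 0.40. A list's count under it is given below only where it differs.

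The called loci made up much of the transcript pool, a description that follows from how they were called. Those that rose held 19.6% of all normalised counts at 28 °C and 50.9% at 10 °C. Those that fell held 35.0% at 28 °C and 10.7% at 10 °C. In tolerant roots, whose fold changes did not set these calls, the loci that rose in sensitive roots went from 19.9% to 45.5% of the counts and those that fell went from 34.5% to 13.5%. The number of loci that together made up 50% of the counts was 1513 at 28 °C and 1366 at 10 °C in sensitive roots.

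**Figure D1:**
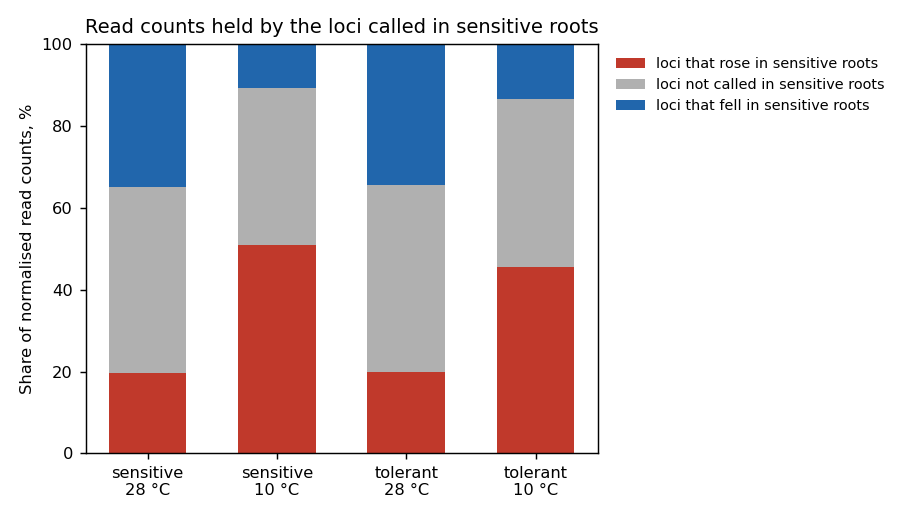
Share of normalised read counts, in percent, held in each of the 4 groups by loci that rose, fell or were not called in sensitive roots. The loci that rose go from 19.6% at 28 °C to 50.9% at 10 °C in sensitive roots, and the same loci go from 19.9% to 45.5% in tolerant roots.

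More loci were called in classes with more reads. Below a mean of 10 normalised counts, 10.1% of 4266 tested loci were called. From 10 to 100 the share was 42.5% of 6904 and from 100 to 1000 it was 53.4% of 10088. From 1000 to 10000 it was 58.7% of 4775, and at 10000 or more it was 62.7% of 166. The median standard error on the log2 scale was 1.78 in the lowest class, 0.26 between 1000 and 10000 and 0.30 at 10000 or more. The median size of a called change was 5.13, 1.21 and 1.61 in the same classes.

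Direction also differed between the classes. Among called loci, 42.6% rose at means of 10 to 100 and 47.4% at 100 to 1000, against 66.3% at 1000 to 10000 and 59.6% at 10000 or more. Under total-count scaling these shares were 34.4%, 34.8%, 50.5% and 50.0%, so at 1000 or more rises and falls were about even under that scaling. Tolerant roots gave 29.2%, 50.0%, 75.2% and 57.6% in the same classes. Below a mean of 10, 54.6% of called loci rose in sensitive roots, or 40.0% under total-count scaling, and 27.3% rose in tolerant roots, a difference between lines that was not tested. The lowest size factor in the cold was 0.679 in sensitive and 0.818 in tolerant libraries.

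**Figure D2:**
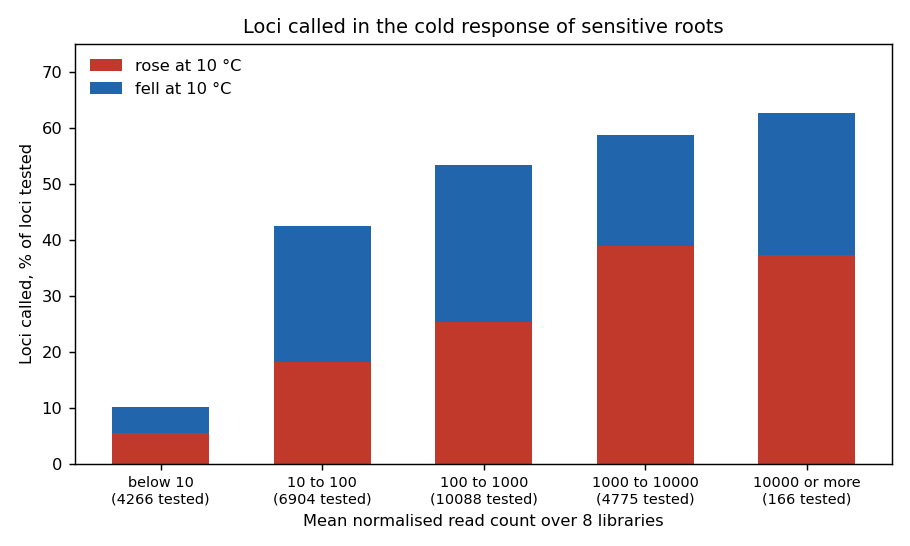
Loci called in sensitive roots as a percent of the loci tested, for 5 classes of the mean normalised read count over 8 libraries, with the rises in red and the falls in blue. The total climbs from 10.1% below a mean of 10 to 62.7% at 10000 or more.

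In the class of 10000 or more, the 3 largest rises started below 1000 normalised counts. LOC_Os01g50100 rose from 147 to 41099 normalised counts, which the authors' deposited table gives as a log2 ratio of 8.12 ± 0.55 (SE). LOC_Os07g37320 went from 263 to 70570. LOC_Os04g45970 went from 653 to 81045, a 124-fold rise. None of the 3 belongs to a list, and the sources used here give no product for them. The largest falls of the class were LOC_Os03g28330 of the sucrose synthase list, from 59205 to 3919, LOC_Os02g37250, from 22368 to 1654, and LOC_Os02g51110 of the root marker list, from 18411 to 2614.

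Between means of 1000 and 10000, the largest rises started from under 10 normalised counts. LOC_Os01g45110 went from 2.54 to 3558 normalised counts, LOC_Os11g47560 from 9.28 to 10751 and LOC_Os04g12690 from 2.87 to 3302. The largest falls ended near 0. LOC_Os01g25280 stood at 1606 at 28 °C and had 0 reads at 10 °C, which makes it at least 877-fold lower by its counting floor. LOC_Os09g31430 dropped from 6299 to 10.0 and LOC_Os09g39070 from 4687 to 14.4.

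In the class of 100 to 1000, LOC_Os04g56560 and LOC_Os05g37060 rose from 0 reads to 472 and 304 normalised counts. They were at least 368-fold and 237-fold higher, for counting error only. The authors' deposited table gives their log2 ratios as 11.5 ± 3.05 and 10.9 ± 1.73 (SE). LOC_Os01g72900, of the ASR list, rose from 3 reads over the control group to 2727 normalised counts, a ratio of 2098 with a 95% counting interval of 727 to 10304. LOC_Os10g31540, LOC_Os10g18820 and LOC_Os09g19140 fell to 0 reads, from 1079, 489 and 305 normalised counts. In the class of 10 to 100, LOC_Os04g12720, LOC_Os07g08160 and LOC_Os03g50590 rose from 0 reads to 268, 267 and 240.5, and LOC_Os02g08220, LOC_Os10g40470 and LOC_Os12g08900 fell to 0 reads from 156, 133 and 133.

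The largest Wald statistics joined a large change to a small error. LOC_Os01g52480 rose from 25.7 to 1631 normalised counts, 5.99 ± 0.29 (SE) as a log2 ratio with an adjusted p of 4.49e-93 in the authors' deposited table. LOC_Os08g06110, a locus of the circadian clock list, followed with 5.48 ± 0.27 (SE), from 433 to 19328. LOC_Os01g21250 went from 16.2 to 9271, LOC_Os04g38950 from 377.5 to 5964 and LOC_Os10g37660 from 46.7 to 1431. On the falling side stood LOC_Os03g02040, from 2324 to 109.6, and LOC_Os01g40560, from 2711 to 44.1. LOC_Os01g18050 fell from 15404 to 1121, LOC_Os09g27830 from 4084 to 304 and LOC_Os04g46810 from 1542 to 9.19.

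The 47 lists hold 453 loci, of which 452 were in the tables, 451 had a p-value and 432 were tested. Among those tested, 149 rose and 119 fell, 62.0% in all against 44.5% of all tested loci, and the median size of a called change was 2.33 against 1.78. The lists favour well studied and well expressed genes, so these figures describe the lists and set no test. Each list's counts below stand beside 22.8% of all tested loci rising and 21.8% falling. Under total-count scaling, 4597 of the 26199 tested loci rose and 7317 fell. No list was tested against these shares, and a count near them says nothing particular about its list.

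With calls at an adjusted p below 0.01, 22 of the 94 list counts by direction moved by more than 1.5 times. Rises went from 5 to 2 in the phosphate list, from 4 to 2 in the phenylpropanoid list, and from 2 to 1 in the CBF/DREB1, bZIP and desaturase lists. Falls went from 5 to 3 in the list of sucrose synthases and fermentation, from 4 to 2 in the type-A cytokinin list, from 2 to 0 in the jasmonate synthesis list, and from 2 to 1 in the ASR, clock, heat shock factor and silicon and metal lists. Single falls were lost in the NAC, WRKY, zinc finger and ferritin lists, and single rises in the small heat shock protein, ferritin, nitrate and ammonium, lignin, type-A cytokinin and housekeeping lists.

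**Figure D3:**
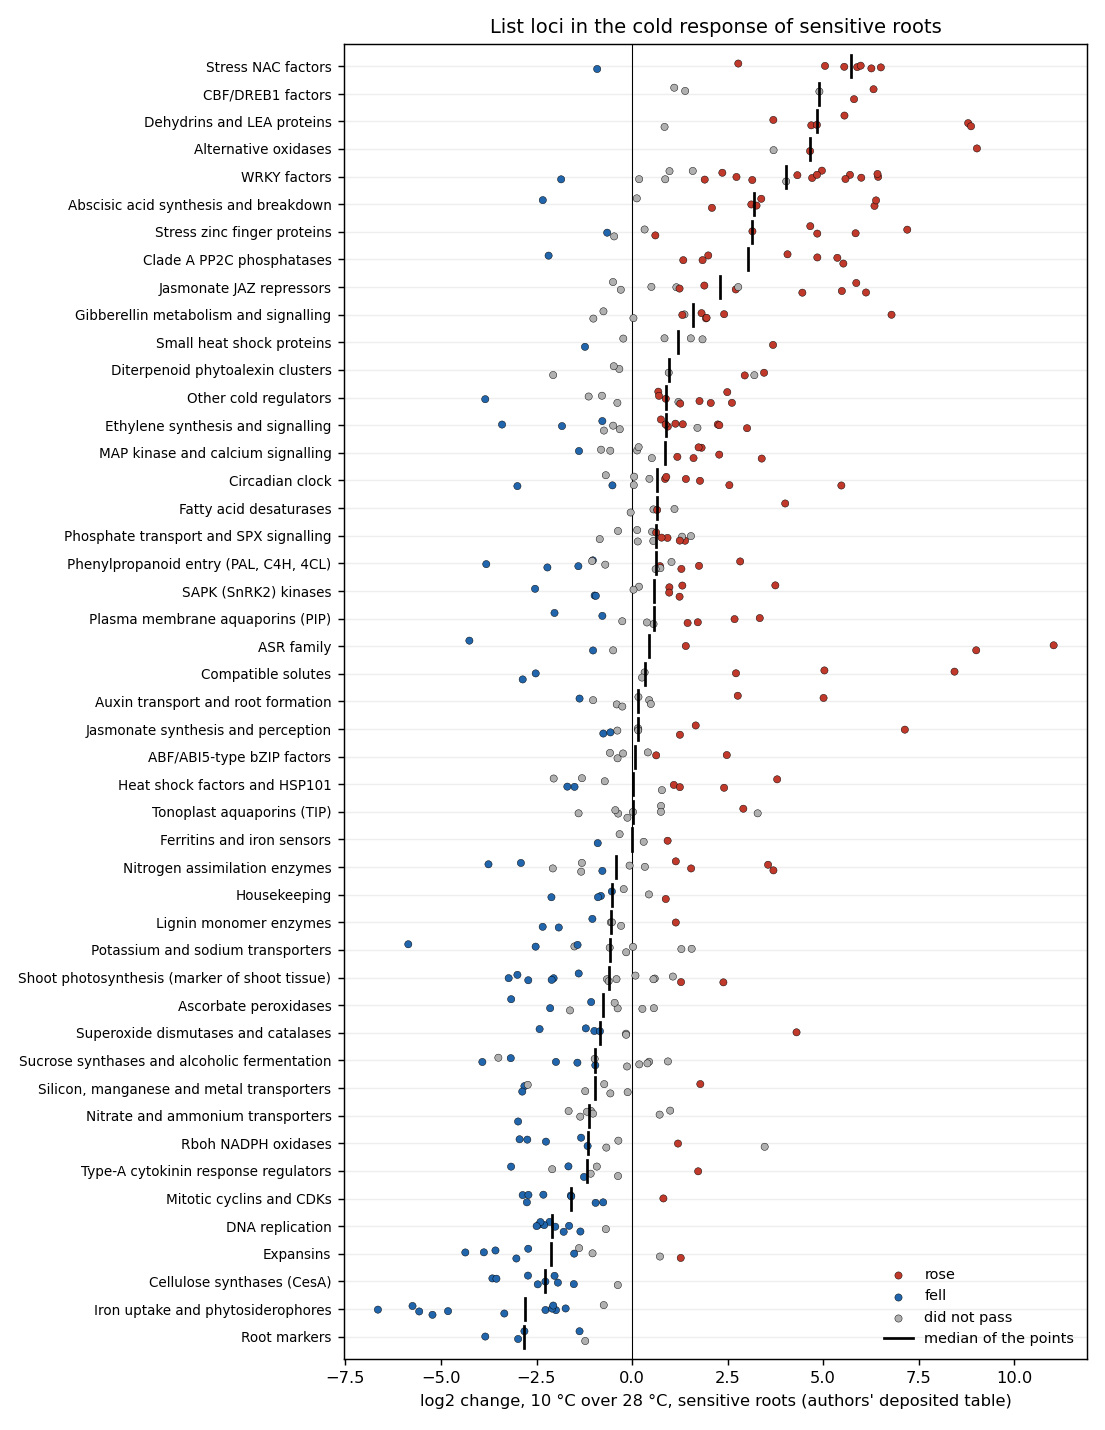
log2 change at 10 °C over 28 °C in sensitive roots for each tested locus of the 47 lists, red where it rose, blue where it fell and grey where it did not pass, with a bar at the median of the points. Each point is 1 list entry, so a locus of more than 1 list is drawn in each. Lists are in order of that median, from root markers at the bottom to stress NAC factors at the top, and 7 entries with 0 reads at a temperature are not drawn.

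Root and shoot markers were read first as a check of the tissue. All 5 root marker loci were present at 28 °C, at 399 to 18411 normalised counts, and 4 of them fell in the cold. The summed level went from 43945 to 7672. LOC_Os02g51110, LOC_Os02g38230 and LOC_Os06g44970 are also in the metal, nitrate and auxin lists, so their falls are counted again there. LOC_Os02g44310 fell from 15994 to 1116, −3.84 ± 0.30 (SE) as a log2 ratio in the authors' deposited table. In whole roots, fewer cells of a type and less RNA per cell cannot be told apart, here or in any list below.

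Photosynthesis loci, which serve as markers of shoot tissue, were also present in these root libraries. None of the 15 was at 0 reads in a sensitive group, and their levels at 28 °C ran from 84.3 to 1957. In the cold 6 fell and 2 rose, and the summed level went from 9292 to 7410. In tolerant roots the sum went from 9507 to 2885, with 9 of 15 falling and 1 rising. The response was more positive in sensitive than in tolerant roots at 15 of 15 loci, against 48.4% of all tested loci, but 1 of them, LOC_Os01g41710, passed the test of the difference. The part of shoot material in the results below was not tested.

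Cold regulators of the CBF/DREB1 list, transcription factors of the early cold response, were scarce. Of 10 loci, 6 were tested, 2 rose (1 under total-count scaling) and 0 fell. LOC_Os06g03670 went from 2 reads over the control group to 70.5 normalised counts, a ratio of 80.0 with a 95% counting interval of 22.8 to 680.3. LOC_Os08g43210 went from 1 read to 23.7 and was not called under total-count scaling. The other tested loci of the list did not pass, among them LOC_Os09g35030 at 12.6 and 27.1.

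Other regulators tied to cold tolerance form a separate list. Of its 13 loci, 8 rose (5 under total-count scaling) and 1 fell, with a median log2 change of 0.88 against −0.03 for all tested loci. LOC_Os05g27930 rose from 2070 to 11652 normalised counts and LOC_Os10g41200 from 1352 to 8285. LOC_Os01g62410, LOC_Os04g43680 and LOC_Os09g29820 rose 3.40-fold, 4.17-fold and 2.40-fold. The single fall was the largest change of the list: LOC_Os03g01320 went from 1976 to 138, −3.84 ± 0.54 (SE) as a log2 ratio in the authors' deposited table.

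Kinases that carry calcium and stress signals rose at 6 of 12 loci and fell at 1 (2 under total-count scaling). The largest rise was at LOC_Os02g54600, from 94.1 to 989 normalised counts, or 3.39 ± 0.68 (SE) as a log2 ratio in the authors' deposited table. LOC_Os04g49510 went from 3912 to 11942, LOC_Os01g32660 from 2250 to 5120 and LOC_Os03g17700 from 761 to 2687. LOC_Os03g43440 rose from 78.2 to 380.2 and LOC_Os07g48090 from 237 to 792. LOC_Os07g06740 fell from 961 to 367.

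Loci of ABA synthesis and breakdown rose at 6 of 8 and fell at 1. Of the 4 NCED loci, whose enzymes cut carotenoids in the step that commits them to ABA, 3 rose and 1 fell, and their summed level went from 59.4 to 811 normalised counts. LOC_Os12g42280 went from 6.80 to 569 and LOC_Os03g44380 from 2.54 to 207, and the authors' deposited table gives their log2 ratios as 6.39 ± 0.80 and 6.35 ± 0.76 (SE). LOC_Os02g47510 went the other way, from 47.5 to 9.42. All 3 loci of the 8′-hydroxylases, which break ABA down, rose: LOC_Os02g47470 from 199 to 847, LOC_Os08g36860 from 55.7 to 484.5 and LOC_Os09g28390 from 4.32 to 41.3. In tolerant roots the summed NCED level went from 39.4 to 402, and none of the 8 loci of the list passed the test of the difference between lines.

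The PP2C phosphatases that act as brakes on ABA signalling rose at 7 of 8 tested loci, with a median log2 change of 3.03. LOC_Os01g62760 rose from 129 to 2168 normalised counts, 4.07 ± 0.35 (SE) as a log2 ratio in the authors' deposited table. LOC_Os01g40094 went from 787.5 to 3138, a smaller change with an even smaller error, 1.99 ± 0.20 (SE) in the authors' deposited table. Loci that were nearly silent at 28 °C rose to moderate levels, LOC_Os09g15670 from 9.70 to 402, LOC_Os03g16170 from 4.61 to 133 and LOC_Os05g38290 from 1.71 to 79.0. LOC_Os01g46760 was the exception and fell from 124 to 27.3.

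SAPK kinases, which those phosphatases restrain, moved both ways. In the list of 10, 5 rose (4 under total-count scaling) and 3 fell, with a median log2 change of 0.58. LOC_Os03g27280 rose most, from 309 to 4159 normalised counts. LOC_Os04g59450 rose 2.49-fold and LOC_Os02g34600 rose 2.37-fold. LOC_Os10g41490 fell from 1853 to 319 and LOC_Os12g39630 from 4922 to 2553. Of the 6 ABF/ABI5-type bZIP loci, the factors at the end of the pathway, 2 rose and LOC_Os01g64730 rose most, from 57.6 to 321; the other of these, LOC_Os02g52780, was not called under total-count scaling.

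Dehydrins and LEA proteins, which protect cells that lose water, rose at 7 of 8 loci with a median log2 change of 5.20, or 5.19 with loci at 0 reads set to their floor. LOC_Os02g44870, the locus of the list with the most reads, went from 1288 to 16725 normalised counts. LOC_Os05g46480 went from 9.06 to 4248, 8.87 ± 0.73 (SE) as a log2 ratio with an adjusted p of 1.62e-31 in the authors' deposited table. A block of 4 neighbours on chromosome 11 rose from near 0: LOC_Os11g26790 to 1454, LOC_Os11g26780 to 157, LOC_Os11g26760 to 76.7 and LOC_Os11g26750, from 0 reads, to 60.1. LOC_Os01g50700 did not pass, at 6.04 and 10.9.

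The ASR family, small proteins named for ABA, stress and ripening, split in the cold. LOC_Os01g72900 and its neighbour LOC_Os01g72910 rose to 2727 and 2862 normalised counts, the latter from 5.56. LOC_Os04g34600 rose from 137 to 364. LOC_Os01g73250 fell from 624 to 32.6, −4.26 ± 0.51 (SE) as a log2 ratio in the authors' deposited table, and LOC_Os11g06720 fell from 12283 to 6056. In tolerant roots LOC_Os01g73250 went from 581 to 246, and the responses of both lines differed by −3.02 ± 0.70 (SE) on the log2 scale with an adjusted p of 0.0081 in the derived Wald test.

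Enzymes of protective sugars and amino acids did not move as 1 group, with 3 of 7 loci rising and 2 falling. In the galactinol branch, LOC_Os07g48830 rose from 2 reads in the control group to a level of 292, a ratio of 347 with a 95% counting interval of 94.6 to 2821. In the trehalose branch, LOC_Os10g40550 rose from 14.3 to 468 and LOC_Os02g44230 from 10.8 to 71.1, while LOC_Os05g44210 fell from 2238 to 389.8. In the proline branch, LOC_Os01g62900 fell from 466.5 to 64.2 and LOC_Os05g38150 did not pass, at 2418 and 3039.

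Stress NAC factors made up the list with the largest median rise, 5.72 on the log2 scale, and 7 of 8 loci rose. At 28 °C these 7 loci lay between 30.4 and 98.9 normalised counts. At 10 °C they lay between 680.2 and 5255. LOC_Os11g03300 rose from 68.4 to 5255 and LOC_Os03g04070 from 30.4 to 2774, and the authors' deposited table gives their log2 ratios as 6.26 ± 0.75 and 6.51 ± 0.64 (SE). LOC_Os01g09550 fell from 488 to 259.

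WRKY factors, a family known mainly from defence, rose at 13 of 19 tested loci and fell at 1, with a median log2 change of 4.03. LOC_Os05g27730 rose from 178 to 4668 normalised counts, LOC_Os02g08440 from 31.0 to 1616 and LOC_Os05g25770 from 72.0 to 1445. LOC_Os01g61080 rose from 14.5 to 925 and LOC_Os09g25070 from 4.31 to 375. LOC_Os08g38990 fell from 191 to 52.9. LOC_Os04g21950 rose from 97.6 to 865 in sensitive roots and stood at 219 and 388 in tolerant roots, where it did not pass, and this difference passed the derived test at 2.32 ± 0.54 (SE) on the log2 scale.

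Stress zinc finger proteins rose at 6 of 9 loci (5 under total-count scaling) and fell at 1, with a median of 3.15. LOC_Os03g60560 rose from 2.52 to 371 normalised counts and LOC_Os12g39400 from 5.97 to 345. LOC_Os09g31200 rose from 264 to 2348. The member with the most reads, LOC_Os06g41010, fell from 18805 to 11981, so the summed level of the list fell from 21440 to 18858 while its median rose.

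Heat shock genes gave a mixed picture in the cold. Of 10 heat shock factor and HSP101 loci, 4 rose and 2 fell (3 under total-count scaling), led by LOC_Os05g45410, from 35.5 to 495 normalised counts, and LOC_Os02g32590, from 191 to 1013. LOC_Os09g35790 fell from 365 to 113. Small heat shock protein loci hardly passed the test, with 1 of 6 rising and 1 falling. The riser, LOC_Os01g04360, had 3 reads over the control group and 16.1 normalised counts in the cold, and it was not called under total-count scaling.

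Clock genes, which set daily rhythms, moved in both directions. Of 12 loci, 6 rose and 2 fell (3 under total-count scaling). LOC_Os08g06110 rose 44.6-fold, LOC_Os11g05930 rose from 2122 to 12407 normalised counts and LOC_Os09g36220 from 2427 to 8327. LOC_Os01g74020 fell from 228 to 28.5. LOC_Os01g08700 went from 33579 to 23534, a change of −0.51 ± 0.22 (SE) on the log2 scale that passed with an adjusted p of 0.043 in the authors' deposited table. LOC_Os03g17570 stood at 7157 and 7389, and no source used here gives the hour of harvest.

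Scavengers of reactive oxygen gave more falls than rises. Of 4 superoxide dismutase loci 3 fell, and their summed level went from 13579 to 7837 normalised counts. The catalase loci split: LOC_Os02g02400 fell from 8336 to 1559, LOC_Os03g03910 rose from 29.9 to 592, and LOC_Os06g51150 stood at 21298 and 19138 and did not pass. Of 8 ascorbate peroxidase loci, which remove hydrogen peroxide, 3 fell (4 under total-count scaling) and 0 rose, and LOC_Os07g49400 fell from 14094 to 1574, −3.16 ± 0.26 (SE) as a log2 ratio in the authors' deposited table. Rboh NADPH oxidases, which produce superoxide, fell at 5 of 9 loci, with LOC_Os01g25820 going from 3943 to 513, and rose at LOC_Os11g33120, from 784 to 1805.

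Alternative oxidase loci, whose enzymes let mitochondrial electrons bypass part of the respiratory chain, rose at 2 of 3 tested. LOC_Os04g51150 rose from 119 to 3018 normalised counts. Its neighbour LOC_Os04g51160 rose from 1.71 to 895, 9.03 ± 1.07 (SE) as a log2 ratio in the authors' deposited table. Both also rose in tolerant roots, to 2630.0 and 422.

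Plasma membrane aquaporins, the water channels of the cell surface, moved in both directions. Of the 8 PIP2 loci 4 rose and 2 fell, and their summed level went from 16241 to 38258 normalised counts; in tolerant roots that sum went from 25848 to 23781. LOC_Os07g26630 rose from 1069 to 10850.3, LOC_Os04g44060 from 4497 to 14834 and LOC_Os07g26660 from 137 to 882. LOC_Os04g16450 fell from 2666 to 653. Of 3 PIP1 loci, LOC_Os02g44630 fell from 26850 to 15678 and LOC_Os02g57720 rose from 2881 to 7898.

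Across all 11 PIP loci the response was more positive in sensitive than in tolerant roots at 10, against 48.4% of all tested loci. None of the 11 passed the test of the difference. Other lists leaned as well, to the more positive side at 12 of 13 phenylpropanoid, 15 of 19 WRKY, 10 of 12 JAZ and 7 of 8 silicon and metal loci. To the more negative side leaned cellulose synthases at 9 of 9, mitotic cyclins and kinases at 8 of 9 and DNA replication at 8 of 10. The iron uptake list and the list of sucrose synthases and fermentation did so at 9 of 12 each. These lists are examples, and no lean of a list was tested. Tonoplast aquaporins, the channels of the vacuole, rose at 1 of 9 tested loci and fell at 0. That locus, LOC_Os01g74450, rose in sensitive roots from 246 to 1855 normalised counts, and in tolerant roots it stood at 680 and 994 and did not pass.

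Iron uptake genes fell at nearly every locus listed. Grasses take up iron by releasing phytosiderophores, made from nicotianamine, and importing the iron they bind. In the cold 11 of 12 loci fell and 0 rose, with a median log2 change of −2.80 and a summed level of 81474 normalised counts at 28 °C and 5014 at 10 °C. LOC_Os02g43410 fell from 18404 to 183, −6.65 ± 0.83 (SE) as a log2 ratio with an adjusted p of 3.29e-14 in the authors' deposited table. LOC_Os02g20360 fell from 23889 to 848 and LOC_Os11g04020 from 6846 to 144.

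The 3 nicotianamine synthase loci fell from a summed 12120 to 377 normalised counts, and 2 of them, LOC_Os03g19427 and LOC_Os03g19420, are neighbours whose reads may be shared. Their errors were large, and the authors' deposited table gives their log2 ratios as −5.22 ± 1.57 and −5.74 ± 1.58 (SE). At an adjusted p below 0.01, 8 of the 12 loci remained counted as falling. In tolerant roots 5 of 12 fell, the sum went from 46916 to 7613, and 0 of 12 passed the test of the difference, so a wider fall in sensitive roots was not shown. Of the ferritin and iron sensor loci, LOC_Os12g01530 rose from 679.8 to 1297 and was not called under total-count scaling, and LOC_Os05g47780 fell from 3369 to 1809.

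Most transporter loci of other minerals did not pass, and few rose. Of all tested loci, 22.8% rose and 21.8% fell. In the silicon, manganese and metal list 2 of 8 fell (4 under total-count scaling) and 1 rose: LOC_Os02g51110 fell from 18411 to 2614 normalised counts, LOC_Os07g15460 fell from 3547 to 484, and LOC_Os06g48720 rose from 94.4 to 326. Of 9 nitrate and ammonium transporter loci, LOC_Os02g38230 fell from 399 to 50.5 and LOC_Os01g36720 rose from 0 reads to 15.5. Potassium and sodium transporters fell at 3 of 9 (4 under total-count scaling), and LOC_Os01g20160 fell from 319 to 5.50, −5.86 ± 0.59 (SE) as a log2 ratio in the authors' deposited table. LOC_Os12g44360 fell from 4204 to 1565.

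Phosphate genes rose at 5 of 13 loci and fell at 0. The rises were small, from 0.63 to 1.39 on the log2 scale, and 2 of the 5 stood under total-count scaling. LOC_Os02g56510 rose from 10026 to 19083 normalised counts and LOC_Os03g61200 from 772 to 1836.

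Enzymes that build nitrogen into amino acids moved both ways. LOC_Os03g18130 rose from 702.5 to 8290.4 normalised counts. LOC_Os01g48960 rose from 6447 to 18834 and LOC_Os03g50490 from 44.1 to 574. LOC_Os01g25484 fell from 5069.5 to 375, −3.76 ± 0.37 (SE) as a log2 ratio in the authors' deposited table. LOC_Os04g56400 fell from 1550 to 206.5 and LOC_Os02g50240 from 8009 to 4677, and in all 4 rose and 3 fell of 12 (3 and 5 under total-count scaling).

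Sucrose synthases with the most reads fell. The 7 sucrose synthase loci, which open sucrose for cell walls and respiration, went from a summed 96918 to 20464 normalised counts, with 3 falling and 0 rising. LOC_Os03g28330 went from 59205 to 3919 and LOC_Os06g09450 from 34517 to 12813. Of 3 loci of pyruvate decarboxylase, an enzyme of fermentation, LOC_Os03g18220 fell from 3184 to 801, −1.99 ± 0.19 (SE) as a log2 ratio in the authors' deposited table. In the alcohol dehydrogenase pair, LOC_Os11g10510 fell from 4625 to 2376, and LOC_Os11g10480 stood at 1655 and 3174 and did not pass.

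Fatty acid desaturases, which keep membranes fluid in the cold, rose at 2 of 5 loci (1 under total-count scaling) and fell at 0. LOC_Os03g18070 rose from 531 to 8553 normalised counts, 4.01 ± 0.61 (SE) as a log2 ratio in the authors' deposited table. In tolerant roots the same locus went from 469 to 7075. The other riser, LOC_Os08g34220, went from 187 to 295 and was not called under total-count scaling.

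Cellulose synthases fell at 8 of 9 loci, with a median log2 change of −2.27, and 0 rose. The 6 loci of the primary wall type, which lay cellulose in growing cells, went from a summed 51206 to 12582 normalised counts. The 3 of the secondary wall type, which thicken the walls of water-conducting and fibre cells, went from 10354 to 1008. LOC_Os01g54620 fell from 5016 to 398 and LOC_Os09g25490 from 3012 to 257, and the authors' deposited table gives their log2 ratios as −3.65 ± 0.24 and −3.55 ± 0.23 (SE).

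These 2 loci also passed the test of the difference between lines. In tolerant roots they fell from 3559 to 804 and from 2744 to 742 normalised counts, and the sensitive response was lower by −1.51 ± 0.34 and −1.66 ± 0.32 (SE) on the log2 scale, with adjusted p-values of 0.00697 and 0.000529 in the derived Wald test. All 9 loci of the list had the more negative response in sensitive roots, while 48.4% of all tested loci had the more positive one.

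Expansins, which loosen the wall for growth, fell at 6 of 10 loci and rose at 1. The 5 beta expansin loci all fell, from a summed 3778 to 422 normalised counts, and LOC_Os10g40730 and LOC_Os10g40720 fell from 1184 to 99.4 and from 571 to 38.9. LOC_Os02g51040, of the alpha type, rose from 40.9 to 98.9.

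Phenylpropanoid entry enzymes, which lead from phenylalanine to lignin and flavonoids, moved in both directions. Of 13 loci 4 rose and 4 fell (3 and 5 under total-count scaling). LOC_Os02g41630 fell from 75791 to 28631 normalised counts and LOC_Os08g14760 from 843 to 59.9. LOC_Os04g43800 rose from 32.3 to 229 and LOC_Os05g25640 from 2646 to 6478. Lignin monomer enzymes fell at 3 of 7 tested loci and rose at 1 (4 and 0 under total-count scaling), among them LOC_Os08g06100, from 10013 to 2651, and LOC_Os08g34280, from 1087 to 215. Diterpenoid phytoalexin loci were scarce, with 12 loci holding a summed 99.4 normalised counts at 28 °C and 192 at 10 °C, and 2 of 8 tested rose.

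Jasmonate JAZ repressors, which jasmonate signalling itself switches on as feedback, rose at 7 of 12 loci and fell at 0 (1 under total-count scaling), with a median log2 change of 2.30. LOC_Os10g25290 rose from 10.1 to 704 normalised counts and LOC_Os03g08320 from 11.2 to 655.5. LOC_Os07g42370 rose from 2115 to 5008. Of 9 loci of jasmonate synthesis and perception, 3 rose (2 under total-count scaling) and 2 fell.

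Within the list of synthesis and perception, LOC_Os03g12500 rose from 2.61 to 368 normalised counts, 7.14 ± 0.85 (SE) as a log2 ratio in the authors' deposited table. In tolerant roots it went from 11.9 to 78.6, and the difference of 4.41 ± 1.09 (SE) between the responses passed the derived Wald test with an adjusted p of 0.0165. LOC_Os10g42430, of the same list, rose from 165 to 525.

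Gibberellin genes rose at 6 of 10 tested loci and fell at 0, with a median log2 change of 1.60. Gibberellin 2-oxidases, which inactivate the hormone, rose at 3 of 4 loci: LOC_Os01g55240 went from 171 to 661 normalised counts, LOC_Os05g06670 from 131 to 501, and LOC_Os04g44150 from 1 read over the group to 47.3. Among the signalling loci of the list, LOC_Os03g49990 rose from 227 to 565 and LOC_Os05g33730 from 342 to 1816. Of the 3 loci of 20-oxidases, which make the hormone, 1 was tested, and LOC_Os03g63970 stood at 254 and 126 and did not pass.

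Cytokinin response regulators of type A, which read out cytokinin signalling, fell at 4 of 9 tested loci (6 under total-count scaling) and rose at 1 (0 under that scaling). LOC_Os02g35180 fell from 726 to 80.9 normalised counts and LOC_Os01g72330 from 1553 to 490.0. LOC_Os07g26720 fell from 13.2 normalised counts to 0 reads, at least 7.21-fold. Auxin transport and root formation loci mostly did not pass, with 2 of 9 rising and 1 falling (2 and 3 under total-count scaling); LOC_Os08g41720 rose from 4.71 to 152 and LOC_Os07g48560 from 7.73 to 52.6.

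Ethylene genes rose at 8 of 15 loci and fell at 3 (6 and 4 under total-count scaling). ACC oxidases, which form ethylene, rose at 3 of 4 loci, with LOC_Os09g27750 going from 57.3 to 279 normalised counts. LOC_Os07g48630, of the same list, rose from 439 to 3537. LOC_Os01g09700, in the subgroup of ACC synthases, fell from 46.6 to 4.41. LOC_Os05g05680 rose from 364 to 915 in sensitive roots, a call lost under total-count scaling, and fell from 448 to 134 in tolerant roots, a difference of 3.07 ± 0.68 (SE) on the log2 scale that passed the derived Wald test with an adjusted p of 0.00505.

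The machinery of DNA replication fell almost as a whole, at 9 of 10 loci with 0 rising and a median log2 change of −2.08. The 6 MCM loci, subunits of the helicase that opens DNA, all fell, from a summed 6780.1 to 1918 normalised counts. LOC_Os02g56130 fell from 2228 to 453, and LOC_Os06g07210 fell from 1793 to 340.5. LOC_Os06g14620 did not pass, at 827 and 515.

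Mitotic cyclins and their kinases followed, with 8 of 9 loci falling and a median of −1.60. LOC_Os05g41390 fell from 548.5 to 75.5 normalised counts and LOC_Os08g40170 from 1166 to 233.5. LOC_Os03g02680 rose from 2008 to 3548, a call lost under total-count scaling. The fall was shared with tolerant roots, where 10 of 10 replication loci and 6 of 9 cyclin and kinase loci fell, and 0 of these 19 loci passed the test of the difference. The response was more negative in sensitive roots at 8 of 10 replication and 8 of 9 cyclin and kinase loci. Of all tested loci, 48.4% had the more positive one, and this lean of both lists was not tested.

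**Figure D4:**
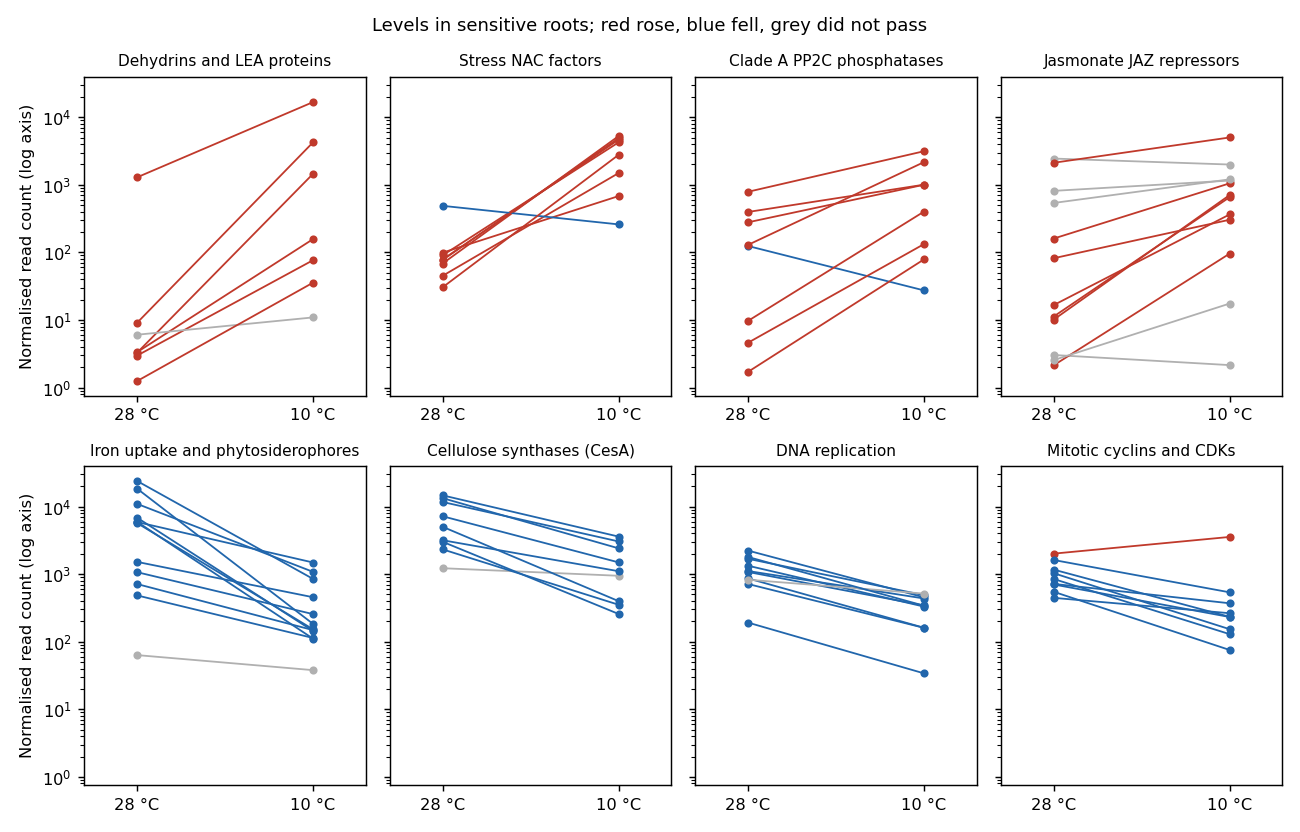
Normalised read counts of list loci in sensitive roots at 28 °C and 10 °C on a log axis, 1 line per tested locus with reads at both temperatures, red where it rose, blue where it fell and grey where it did not pass. In the upper panels most loci climb, as the 7 stress NAC loci do from 30.4 to 98.9 up to 680.2 to 5255, and in the lower panels most fall, as the iron list does from a summed 81474 to 5014.

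Several genes often used as internal references changed. Of 7 housekeeping loci 4 fell and 1 rose, the latter a call lost under total-count scaling. LOC_Os03g50885 fell from 13979 to 3240 normalised counts, −2.11 ± 0.28 (SE) as a log2 ratio in the authors' deposited table. LOC_Os08g03290 fell from 23993 to 12943 and LOC_Os03g51600 from 39399 to 22394. LOC_Os02g42314 stood at 1750 and 1506 and did not pass.

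Called loci also lay side by side. In 28 runs, at least 6 neighbouring tested loci were called in the same direction, 17 runs rising and 11 falling, 177 loci in all; how many such runs an even spread would give was not tested. The longest 2 held 8 loci each and fell. LOC_Os01g06960 to LOC_Os01g07040 went from a summed 218.5 to 2.98 normalised counts, and LOC_Os08g43870 to LOC_Os08g43950 from 686 to 91.3. Among the rising runs, the 6 loci from LOC_Os11g47500 to LOC_Os11g47560 went from a summed 58.8 to 11861, of which LOC_Os11g47560 alone held 10751. The 7 loci from LOC_Os06g05400 to LOC_Os06g05510 went from 568 to 9778, and the 7 from LOC_Os02g37280 to LOC_Os02g37380 from 154 to 3001.

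The runs were chosen on the calls in sensitive roots, and whether the lines differed over a run was not tested. In tolerant roots 7 of the 8 loci of the run from LOC_Os01g06960 were called as falling, 3 of 8 of that from LOC_Os08g43870, and as rising 6 of 7 of that from LOC_Os06g05400, 5 of 7 of that from LOC_Os02g37280 and 2 of 6 of that from LOC_Os11g47500. Neighbours can share reads, which was not tested here. By chromosome, the share of tested loci called ran from 41.7% on chromosome 7 to 47.6% on chromosome 1. Under the authors' size factors, falls outnumbered rises on 4 chromosomes, by 463 to 437 on 6, 443 to 400 on 7, 377 to 270 on 11 and 369 to 261 on 12. Chromosomes were not counted under total-count scaling, where falls outnumbered rises over all loci.

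The cold response of tolerant roots was used to ask where that of sensitive roots differed. Tolerant roots called 20.3% of tested loci as rising and 19.7% as falling, and of 8370 loci called in both lines 8360 moved in the same direction. In sensitive roots 3300 called loci were not called in tolerant roots, yet 56 of these passed the test of the difference itself. That derived Wald test, the difference of both deposited log2 changes over the root of their summed squared errors, passed 163 of 26199 loci (0.622%).

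Among the 163, the sensitive response was the larger in size at 111 and the tolerant response at 52. In sensitive roots 71 of them rose with the more positive response, 46 fell with the more negative one and 33 were not called. The lists held 7 of the 163.

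**Figure D5:**
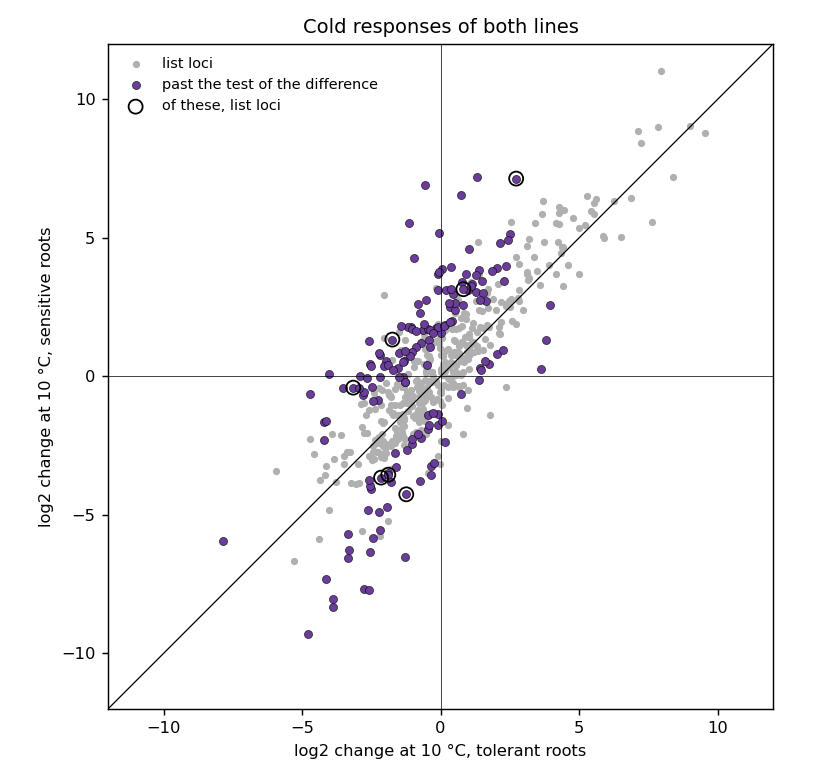
log2 change at 10 °C in sensitive roots against that in tolerant roots, for list loci in grey and for 158 of the 163 loci past the test of the difference in purple, with the 7 list loci among them ringed and 5 loci with 0 reads in a group not drawn. Points on the diagonal changed alike, and the purple points lie on both sides of it.

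Of the 5 smallest p-values with the larger response in sensitive roots, 3 belonged to falls. LOC_Os03g11650 fell in sensitive roots from 1820 to 195 normalised counts and stood at 1201 and 957 in tolerant roots, where it did not pass, a difference of −2.90 ± 0.43 (SE) on the log2 scale with an adjusted p of 2.18e-07 in the derived Wald test. LOC_Os10g31630 fell from 982.5 to 12.1 in sensitive and from 958 to 165 in tolerant roots. LOC_Os09g31430 fell from 6299 to 10.0 and from 2356 to 86.4. These loci fell in sensitive roots to between 1 in 9.35 and 1 in 629 of their level at 28 °C.

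The other 2 were rises, 1 of them opposed by a fall in tolerant roots. LOC_Os04g38950 rose from 377.5 to 5964 normalised counts in sensitive and from 369 to 1889 in tolerant roots, a difference of 1.63 ± 0.29 (SE) on the log2 scale. LOC_Os07g14740 rose from 82.6 to 281 in sensitive roots and fell from 224 to 106 in tolerant roots. In the other direction, the response was larger in tolerant roots at LOC_Os09g29490, which stood at 201 and 151 in sensitive roots and fell from 552 to 48.4 in tolerant roots. LOC_Os07g09870 stood at 2433 and 2210 in sensitive roots, where it did not pass, and rose from 1395 to 3644 in tolerant roots.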

How the data were processed

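Roots of both rice lines at 28 °C and 10 °C were sequenced, 2 libraries per group. The authors' deposited tables hold, per locus, the mean of normalised read counts over all 8 libraries (the authors' read counts divided by size factors, a signal that is comparable between libraries), the log2 fold change with its standard error, the Wald statistic (a score), and p-values with Benjamini-Hochberg adjustment, in the column format of DESeq2. Bowtie 0.12.7 is named in the submitters' processing notes, and the deposited tables' names point to STAR; the sources used here state no build, annotation, counting tool or version of the authors' DESeq2. Single-read loci in the tables gave the size factors, and group levels were solved from the mean and the fold changes with Python 3.11.15, numpy 2.4.6, pandas 2.3.3 and scipy 1.17.1. The difference between lines was tested by a derived Wald test on both deposited log2 changes, adjusted over all 26199 loci. It was also run on simulated data with independent normal errors of the deposited size. The test assumes such errors, so that run cannot check them. Not every difference planted there was called, so a locus that did not pass may still differ. A call means adjusted p below 0.05. Fold limits for 0 reads use 3 reads over the group, and 95% intervals are exact Poisson intervals of the calculated, rounded reads. Both cover counting error only. The members and lists were chosen with earlier results of these data known. Named loci were, per list, the called locus with the highest mean and that with the largest change, with others as space allowed; per class, the 3 largest rises and falls; the 5 largest Wald statistics each way; and, for the difference, the 5 smallest p-values each way. Loci named as not passing were chosen after their values were seen. Alternatives were a stricter threshold, fold and mean filters, and other scalings.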

Additional observations from a re-analysis of the deposited data

Results flagged for a closer look

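The cold responses of both lines differed past the derived Wald test at 20 of the loci named or listed here, and each difference below is the log2 response of sensitive roots minus that of tolerant roots.

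Falls that went further in sensitive roots gave −2.90 at LOC_Os03g11650, −3.80 at LOC_Os10g31630, −4.53 at LOC_Os09g31430 and −1.18 at LOC_Os09g27830. The list loci LOC_Os01g73250, LOC_Os01g54620 and LOC_Os09g25490 gave −3.02, −1.51 and −1.66. LOC_Os10g31540 gave a fitted −7.16, which is no bound, since the locus had 0 reads at 10 °C in sensitive roots.

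Rises in sensitive roots that were larger than in tolerant roots, or were set against a fall or no call there, gave 1.63 at LOC_Os04g38950, 2.84 at LOC_Os07g14740, 2.32 at LOC_Os04g21950, 4.41 at LOC_Os03g12500 and 3.07 at LOC_Os05g05680.

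Falls in tolerant roots that were smaller or not called in sensitive roots gave 3.10 at LOC_Os09g29490, 2.53 at LOC_Os01g01520, 2.13 at LOC_Os06g16160, 2.95 at LOC_Os03g42259, 2.75 at LOC_Os01g41710 and 1.90 at LOC_Os01g40560. LOC_Os07g09870 rose in tolerant roots, was not called in sensitive roots, and gave −1.52.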

How the results depend on the processing

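The count of called loci, 11670, was 8820 at an adjusted p below 0.01, 9359 with at least a 2-fold change, 11053 without the filter on low means, 9985 when only loci at or above the median of all means were tested, 11734 after recentring and 11914 under total-count scaling. The difference test passed 57 loci at an adjusted p below 0.01 in place of 163. Of 470 named or listed loci, 49 lost their call at 0.01, 4 lost and 5 gained one after recentring, and 22 lost and 17 gained one under total-count scaling. No call could reverse, because both shifts were smaller than the smallest called change, 0.40 on the log2 scale. No paired analysis was possible because values per library were not used here, and leaving out libraries was not run for the same reason. Below a mean of 10 the smallest called change was 2.13 on the log2 scale, and what size of change could be detected there was not tested.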
